A study of Arabidopsis thaliana with 27 samples.

Results

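N-acylethanolamines (NAEs) are fatty acid amides of ethanolamine, and NAE 18:3 and NAE 18:2 differ in 1 double bond of the acyl chain. Roots of Arabidopsis thaliana seedlings treated with NAE 18:3 are compared here directly with roots treated with NAE 18:2, gene by gene. The comparison rests on 6 of the 27 libraries of the series, 3 for each NAE, and on 20138 of 32833 genes, those with enough counts in the 9 root libraries to be tested. The libraries were chosen by their labels alone, without use of any measured value. All plants were of the ecotype labelled Col-O, 3 days of age, grown in shaken liquid medium with sucrose, and the roots were dissected after treatment of the intact seedling. NAE 18:3 was given at 70 µM, NAE 18:2 at 40 µM, and DMSO control roots received 0.2% DMSO. The dose of NAE 18:3 is stated as 80 µM in the description of the whole series, and the labels give 1 h for the treatment where the study's methods allow up to 3 h. Because the doses differ, the acyl chain and the dose cannot be told apart in any difference between the NAEs, and the comparison sets one treatment beside the other. The 3 libraries of a group are called biological replicates in the study, and nothing further is stated on which flasks or dishes they came from.

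NAEs are released from membrane phospholipids through N-acylphosphatidylethanolamine, are abundant in dry seeds, and are depleted as seeds germinate. They are removed by hydrolysis through fatty acid amide hydrolase (FAAH) or, for the polyunsaturated species, by lipoxygenases (LOX), which add oxygen to the acyl chain to give NAE-oxylipins. Linoleoylethanolamide (NAE 18:2) and linolenoylethanolamide (NAE 18:3) are known to slow seedling growth when supplied from outside, with an interaction with abscisic acid (ABA) signaling. The young root meets such a compound in its epidermis and root hairs first. Behind these lie the endodermis, sealed by the lignin of the Casparian strip and by suberin, and the xylem and phloem of the stele.

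Root libraries held 17781269 to 26798705 counts, with 17781269 to 25431443 for NAE 18:3, 21429356 to 25002522 for NAE 18:2 and 19812956 to 26798705 for DMSO. The 3 treatments separated along the first principal component (60.7% of the variance), where NAE 18:3 roots lay at -129, -95.2 and -114, NAE 18:2 roots at 17.3, 50.2 and 24.7, and DMSO roots between 70.5 and 91.6. In the sum of 14 root identity markers, NAE 18:3 roots held 913 to 1421 CPM (counts scaled to a common library total), NAE 18:2 roots 3349 to 3935 and DMSO roots 4392 to 7250, against 1899 to 3185 CPM in dissected cotyledons. Most of this sum was PYK10, with a mean of 990 CPM in NAE 18:3 roots, 2984 CPM in NAE 18:2 roots, 4171 CPM in DMSO roots and 2976 CPM in DMSO cotyledons, so that the sum does not separate the organs. Of the 14 markers 9 were called lower and 0 higher by the rule below, and 4 (WOX5, PLT1, SCR and SKOR) had a higher mean in NAE 18:3 than in NAE 18:2 roots. Photosynthesis genes that mark cotyledons summed to 2144 CPM in NAE 18:3 replicate 3 and to 159 to 266 CPM in the other 8 root libraries, against 109876 to 137222 CPM in dissected cotyledons. Mitochondria-encoded genes took 10719 CPM in NAE 18:2 replicate 3 and at most 3853 CPM in any other root library. Counts below were therefore also taken without either of these libraries, or without both, and their part in the results was not tested further. In bulk tissue a fall of a cell type's transcripts can come from fewer such cells or from less RNA in each, and these cannot be told apart.

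A gene was called when its fold change was over 2 and its p-value, from the quasi-likelihood test of edgeR and adjusted by Benjamini-Hochberg over all 20138 genes, was under 0.01. Values per library are CPM scaled by the TMM factors of the root libraries, and fold changes are log2 of NAE 18:3 over NAE 18:2 with their standard errors (SE), so that a negative value means a lower level under NAE 18:3. By this rule 3084 genes (15.3%) were lower and 384 genes (1.91%) higher in NAE 18:3 roots, 17.2% of the genes in all. The reduced genes had a median log2 fold change of -2.25, with 1803 of them over 4-fold and 368 over 16-fold lower. The increased genes had a median of 1.28, with 59 over 4-fold and 1 over 16-fold. Over all genes tested the median was -0.04. The 3 libraries of each NAE did not overlap in any called gene, while 33.4% of all tested genes lay lower and 28% higher without overlap in NAE 18:3 roots, 61.4% in either direction. The balance of the calls moved with the fit. With upper-quartile scaling alone 654 genes were higher and 2850 lower, the increased genes being 18.7% of the calls against 11.1% here. With all 27 libraries, where the scaling, the spread and the genes tested (21643) all differ, 842 were higher and 2897 lower (22.5%), with the median of all genes at 0.09. Without NAE 18:3 replicate 2, which lay highest of its group in 2126 of the 3084 reduced genes (68.9%, against 41.2% of all tested genes), 595 genes were higher. With NAE 18:3 replicate 3 and NAE 18:2 replicate 3 both left out, a choice made after seeing the data, 1431 genes were lower and 179 higher; 17 of 23 suberin genes were then lower (19 with all libraries), 5 of 15 Casparian strip genes (10), 14 of 35 secondary wall genes (23), 21 of 54 class III peroxidases (39) and 11 of 36 glutathione S-transferases (20). Also without both, extensins had 3 lower (10 with all libraries), expansins 2 (7) and root hair genes 4 (11). Nitrogen genes had 3 (8), ethylene synthesis 2 (6), and pectin lyases and methylesterases 8 (24). Lipoxygenases and NAE hydrolysis had 0 (2), and ABA and cold effectors 0 (4). Phenylpropanoid and lignin genes had 11 (13), phloem genes 6 (9) and type-A ARR genes 5 (7). In the lists that follow, counts of 1 or 2 called members moved by up to 3 as single libraries were left out, except where more is given.

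**Figure D1:**
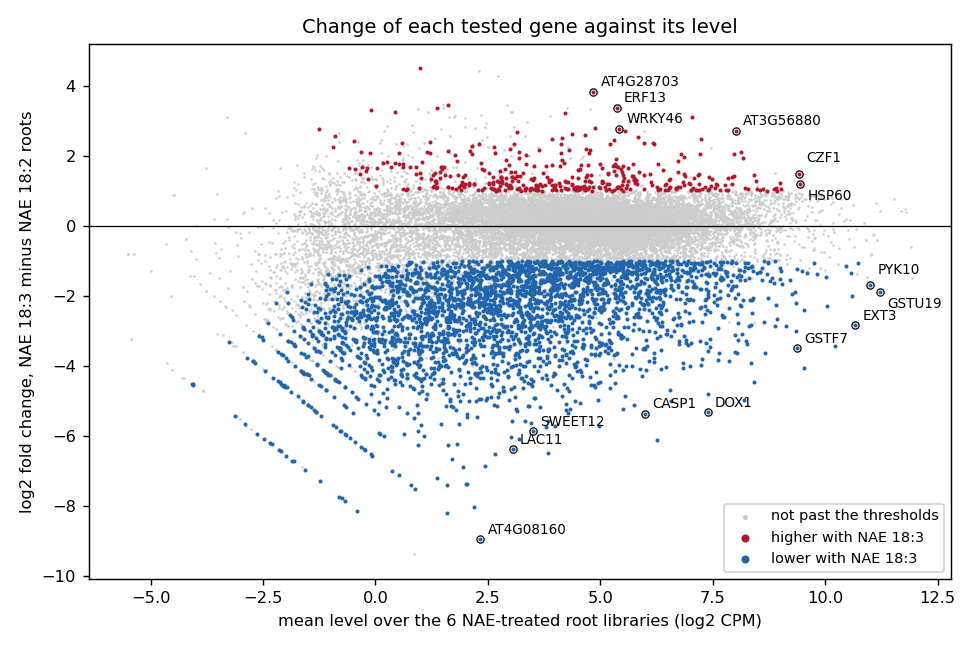
Each point is a gene of the root contrast, with its mean level over the 6 NAE libraries in CPM on a log axis and its log2 fold change (NAE 18:3 over NAE 18:2) on the vertical axis, and called genes are coloured. The 3084 reduced genes reach below -6 mostly at low levels, while the 384 increased genes mostly lie between 1 and 3.

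DMSO roots place the difference. Against DMSO, 1197 genes were higher (5.94%) and 3376 lower (16.8%) in NAE 18:3 roots, and 1143 were higher (5.68%) and 610 lower (3.03%) in NAE 18:2 roots. These are 22.7% and 8.7% of the genes in either direction, and both comparisons use the same 3 DMSO libraries. Among the 3084 genes lower under NAE 18:3 than under NAE 18:2, the median log2 fold change against DMSO was -2.10 with NAE 18:3 and 0.09 with NAE 18:2. The mean of DMSO roots lay above both NAEs in 1441 of these genes, between them and nearer to NAE 18:2 in 928, between them and nearer to NAE 18:3 in 448, and below both in 267. Among the 384 genes higher under NAE 18:3, the corresponding medians were 1.27 and -0.07, and DMSO lay below both NAEs in 183, nearer to NAE 18:2 in 130, nearer to NAE 18:3 in 64 and above both in 7.

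**Figure D2:**
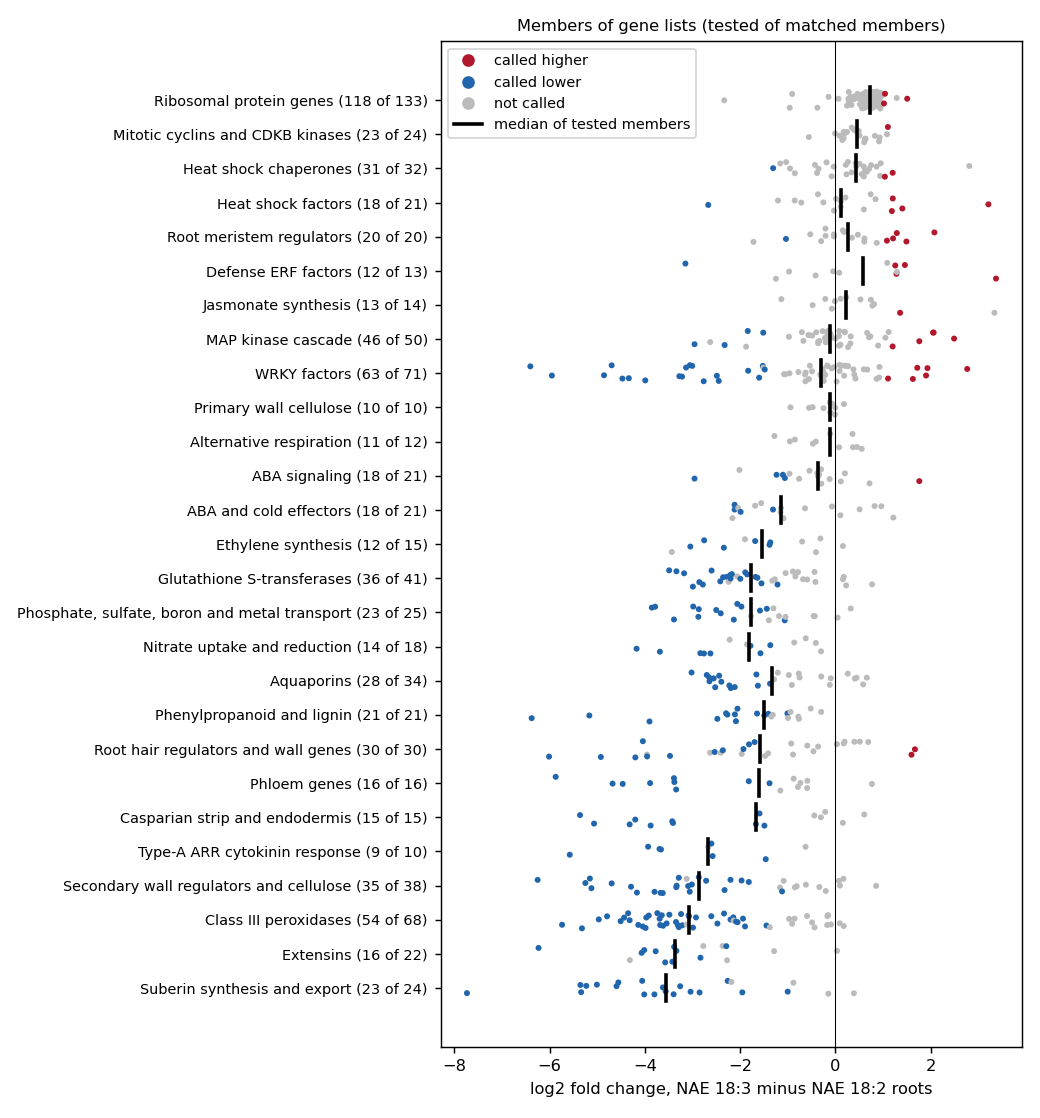
Rows are lists of functionally related genes; each grey point is a tested member's log2 fold change (NAE 18:3 over NAE 18:2), coloured where the gene was called, and the bar marks the list's median. Suberin, extensin, peroxidase and secondary wall genes lie far to the left, with medians from -3.56 to -2.87, and the ribosomal protein genes form a narrow group to the right with a median of 0.74.

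The 10 genes with the largest falls are given here by what they encode, not by rank. LAC16 (AT5G58910) and LAC11 (AT5G03260) encode laccases, of the family that polymerizes lignin. LAC16 had 0.126, 0.154 and 0.1104 CPM in NAE 18:3 roots, against 6.71, 15.4 and 15.5 CPM in NAE 18:2 roots (log2 fold change -6.51 ± 0.53 (SE), adjusted p = 8.7e-05), and 1.39, 2.53 and 1.13 CPM in DMSO roots. LAC11 had 0.126, 0.231 and 0.221 CPM in NAE 18:3 roots, against 15.3, 15.7 and 18.2 CPM in NAE 18:2 roots (log2 fold change -6.38 ± 0.58 (SE), adjusted p = 0.00013). In both genes the highest NAE 18:3 library was far under the lowest NAE 18:2 library. CYP735A2 (AT1G67110, chr1:25061673-25065446 of TAIR10.1), which makes trans-zeatin cytokinins in roots, had 0.463, 0.231 and 0.221 CPM in NAE 18:3 roots, against 15.7, 26.3 and 42.4 CPM in NAE 18:2 roots (log2 fold change -6.48 ± 0.79 (SE), adjusted p = 0.00039). SWEET12 (AT5G23660), a sucrose exporter of the phloem, had 0.378, 0.193 and 0.607 CPM in NAE 18:3 roots, against 14.8, 20.9 and 31.00 CPM in NAE 18:2 roots (log2 fold change -5.87 ± 0.73 (SE), adjusted p = 0.00043). NAE 18:2 roots overlapped with DMSO roots in both, at 40.3, 28.5 and 7.96 CPM in DMSO roots for CYP735A2 and 35.3, 18.6 and 6.83 CPM in DMSO roots for SWEET12.

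Of the other 6 genes with the largest falls, AT3G55230, annotated as a disease resistance-responsive protein of the dirigent type, was the most abundant, with 1.39, 3.35 and 1.77 CPM in NAE 18:3 roots, against 109, 205 and 144 CPM in NAE 18:2 roots (log2 fold change -6.11 ± 0.52 (SE), adjusted p = 0.00011). GH9C1 (AT1G48930), an endo-glucanase, had 0.252, 0.154 and 0.331 CPM in NAE 18:3 roots, against 7.004, 32.1 and 8.91 CPM in NAE 18:2 roots (log2 fold change -6.04 ± 0.85 (SE), adjusted p = 0.00073), and its NAE 18:2 libraries differed widely among themselves. The peroxidase AT5G51890 changed by -5.74 ± 0.61 (adjusted p = 0.00023), and AT1G44160, a DnaJ-type peptide-binding protein, by -6.08 ± 0.35 (adjusted p = 3.9e-05). AT1G18830, a WD40 repeat protein, had 0.0841, 0.154 and 0 CPM in NAE 18:3 roots, against 8.57, 8.37 and 15.5 CPM in NAE 18:2 roots, and DMSO roots lay near NAE 18:3 roots with 0.512, 0.312 and 0.295 CPM in DMSO roots. AT4G08160, a glycosyl hydrolase of family 10, had 1 count in the 3 NAE 18:3 libraries together and 678 in the NAE 18:2 libraries, a ratio of NAE 18:2 over NAE 18:3 of 686 with a 95% counting interval from 123 to 27141. With each library left out in turn, log2 fold changes ran from -6.38 to -5.03 for GH9C1, -6.91 to -5.79 for AT1G44160 and -7.66 to -6.43 for AT1G18830. Low counts are common among the reduced genes, since 134 of the 3084 had 3 or fewer counts over the NAE 18:3 libraries and 20 had none, so that their fitted fold changes have no firm upper size.

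Genes of the endodermal barriers were among the most reduced. The Casparian strip is built where CASP proteins scaffold a peroxidase and a dirigent protein that lay down lignin, under the transcription factor MYB36. Of 15 tested genes of the Casparian strip and endodermis, 10 were lower and 0 higher (all genes tested: 15.3% lower, 1.91% higher), with a median of -1.67 beside -0.04 over all genes. CASP1 (AT2G36100) had 2.31, 4.82 and 1.82 CPM in NAE 18:3 roots, against 95.1, 145 and 136 CPM in NAE 18:2 roots (log2 fold change -5.36 ± 0.50 (SE), adjusted p = 0.00013), and 123, 113 and 277 CPM in DMSO roots. Every NAE 18:3 library lay below every NAE 18:2 library in CASP1, and the NAE 18:2 libraries overlapped with DMSO roots. CASP2 (AT3G11550) changed by -5.07 ± 0.59, the peroxidase PER64 (AT5G42180) by -4.32 ± 0.60 and MYB36 (AT5G57620) by -1.67 ± 0.23, with adjusted p-values of 0.00032, 0.00071 and 0.00061. CASP4 (AT5G06200), also called lower, had 0.799, 0.655 and 0.883 CPM in NAE 18:3 roots, against 3.25, 16.3 and 5.32 CPM in NAE 18:2 roots, and 26.7, 26.4 and 75.4 CPM in DMSO roots. CASP4 missed the threshold with 1 library fewer, with adjusted p-values after leaving out NAE 18:3 replicate 1 (CASP4 0.024), NAE 18:3 replicate 2 (CASP4 0.02), NAE 18:3 replicate 3 (CASP4 0.02) and NAE 18:2 replicate 2 (CASP4 0.014). The log2 fold change ran from -5.65 to -4.80 for CASP2, -4.65 to -3.65 for PER64 and -3.78 to -2.46 for CASP4 as single libraries were left out. The tissue regulators SCR (AT3G54220) and SHR (AT4G37650) were not called. SCR, which specifies the endodermis, had 69.8, 60.01 and 71.1 CPM in NAE 18:3 roots, against 58.9, 63.98 and 57.3 CPM in NAE 18:2 roots (log2 fold change 0.16 ± 0.11, adjusted p = 0.24), and these ranges overlapped.

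Suberin is a polyester of long-chain fatty acids, glycerol and ferulate that coats endodermal cells. Of 23 tested genes of its synthesis and export, 19 were lower and 0 higher, and the median was -3.56. The NAEs lay on either side of DMSO here: against DMSO, 12 of the 23 were lower and 2 higher with NAE 18:3 (median -1.52), and 11 were higher and 0 lower with NAE 18:2 (median 1.64). CYP86B1 (AT5G23190), a fatty acid omega-hydroxylase for very long chains, had 0.252, 1.58 and 0.939 CPM in NAE 18:3 roots, against 27.3, 43.5 and 43.3 CPM in NAE 18:2 roots (log2 fold change -5.34 ± 0.47 (SE), adjusted p = 0.00012), and 3.805, 5.57 and 5.36 CPM in DMSO roots. GPAT5 (AT3G11430), the acyltransferase that joins such acids to glycerol, had 0.252, 0.809 and 0.221 CPM in NAE 18:3 roots, against 12.1, 14.9 and 23.8 CPM in NAE 18:2 roots (log2 fold change -5.23 ± 0.52 (SE), adjusted p = 0.00018), and 1.28, 2.49 and 2.75 CPM in DMSO roots. In both genes each NAE 18:2 library lay above each DMSO library and each NAE 18:3 library below. ASFT (AT5G41040, annotated as RWP1), which attaches ferulate, had 2.06, 8.94 and 6.07 CPM in NAE 18:3 roots, against 168, 219 and 164 CPM in NAE 18:2 roots (log2 fold change -5.01 ± 0.45 (SE), adjusted p = 0.00012).

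The suberin regulator MYB41 (AT4G28110) had 2.99, 9.71 and 5.13 CPM in NAE 18:3 roots, against 53.4, 36.8 and 57.6 CPM in NAE 18:2 roots, and 3.805, 5.54 and 6.64 CPM in DMSO roots, so that NAE 18:3 roots stayed near the DMSO level while NAE 18:2 roots stood above it (log2 fold change -3.04 ± 0.40 (SE), adjusted p = 0.00056). GPAT7 (AT5G06090) had the same arrangement, with 0.883, 4.43 and 1.601 CPM in NAE 18:3 roots, against 54.3, 46.2 and 66.1 CPM in NAE 18:2 roots, and 1.39, 2.14 and 1.38 CPM in DMSO roots. The exporter ABCG6 (AT5G13580) had 0.547, 3.55 and 2.93 CPM in NAE 18:3 roots, against 39.2, 57.5 and 72.8 CPM in NAE 18:2 roots, and 3.51, 4.37 and 7.87 CPM in DMSO roots. Its log2 fold change between the NAEs was -4.60 ± 0.57 (adjusted p = 0.00042), and that of GPAT7 was -4.56 ± 0.48 (adjusted p = 0.00023). FACT (AT5G63560), a caffeoyl transferase and 1 of the 4 tested members that were not called, had 0.168, 3.24 and 0.166 CPM in NAE 18:3 roots, against 5.06, 6.35 and 5.45 CPM in NAE 18:2 roots (adjusted p = 0.071), and it was called lower without NAE 18:3 replicate 2, at -5.01 (adjusted p = 0.00032) against -2.18 ± 0.91 with all libraries. Over the 9 fits that each left out 1 root library, the log2 fold change ran from -6.05 to -4.85 for CYP86B1, -6.10 to -4.91 for GPAT5 and -5.49 to -4.13 for GPAT7.

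**Figure D3:**
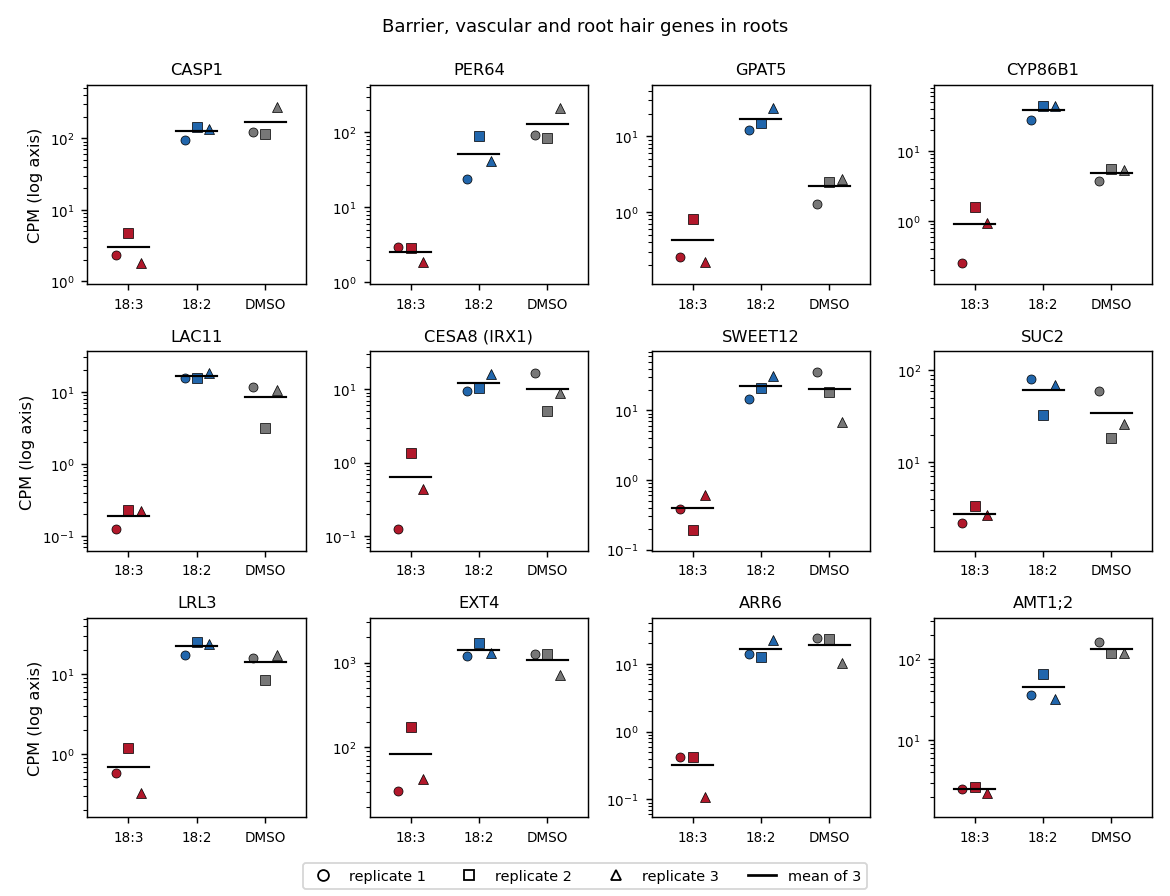
Points are single root libraries, with CPM on a log axis, each panel runs from the roots of NAE 18:3 over those of NAE 18:2 to DMSO, and the line marks the mean of the 3 libraries. In all 12 genes the NAE 18:3 libraries stand lowest of the treatments, in CASP1, SUC2, SWEET12 and ARR6 the NAE 18:2 libraries overlap with DMSO, and in the suberin genes GPAT5 and CYP86B1 they stand above it.

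The 250 bases before the annotated start of CYP86B1 and LAC4 (laccase 4, described with the xylem genes) are shown because each holds the W-box core TTGAC, the letters bound by WRKY factors, and because several WRKY genes themselves changed. They were read from the RefSeq TAIR10.1 genome on the strand of the gene, 5′ to 3′, at chr5:7805969-7806218, minus strand for CYP86B1 and chr2:15933994-15934243, plus strand for LAC4, and capitals mark TTGAC or its reverse complement.
CYP86B1: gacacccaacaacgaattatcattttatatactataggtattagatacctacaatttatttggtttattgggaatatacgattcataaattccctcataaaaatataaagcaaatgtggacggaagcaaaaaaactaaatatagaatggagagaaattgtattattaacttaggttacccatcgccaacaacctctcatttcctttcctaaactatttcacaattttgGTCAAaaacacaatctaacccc
LAC4: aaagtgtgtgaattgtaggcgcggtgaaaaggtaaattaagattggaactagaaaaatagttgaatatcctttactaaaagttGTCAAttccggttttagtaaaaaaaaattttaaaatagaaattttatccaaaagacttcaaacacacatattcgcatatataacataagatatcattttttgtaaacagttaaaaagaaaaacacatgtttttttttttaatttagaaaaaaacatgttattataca
With both strands searched, TTGAC was found in 14 of 23 promoters of the suberin list (60.9%) and 6 of 15 of the Casparian list (40%). In the secondary wall list, TTGAC was found in 12 of 35 promoters (34.3%). It occurred in 50.6% of the promoters of reduced genes, 52.6% of those of increased genes and 45.6% of those of all 20066 tested genes with such a window. The letters share TGAC with the as-1 core TGACG, a match is only a description, and none of these shares was tested.

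Genes of the xylem were mostly lower. Secondary walls of vessels are made of cellulose from the CESA4, CESA7 and CESA8 subunits, xylan and lignin, under NAC factors (VND6, VND7) and the MYB factors MYB46 and MYB83. Of 35 tested regulators and wall genes, 23 were lower and 0 higher, with a median of -2.87. CESA8 (AT4G18780, annotated as IRX1) had 0.126, 1.35 and 0.442 CPM in NAE 18:3 roots, against 9.37, 10.4 and 16.1 CPM in NAE 18:2 roots (log2 fold change -4.17 ± 0.69 (SE), adjusted p = 0.0015), with 16.4, 5.03 and 8.95 CPM in DMSO roots. CESA4 (AT5G44030) changed by -2.71 ± 0.32 (adjusted p = 0.00035) and CESA7 (AT5G17420, annotated as IRX3) by -2.20 ± 0.29 (adjusted p = 0.00056). By contrast, of 10 tested genes of primary wall cellulose 0 were called by edgeR or DESeq2, and 3 had an unadjusted p under 0.05. CESA3 (AT5G05170) of that list had 434, 445 and 477 CPM in NAE 18:3 roots, against 403, 511 and 446 CPM in NAE 18:2 roots (log2 fold change -0.01 ± 0.12, adjusted p = 0.97), the groups overlapping. The peptidases of dying vessels XCP1 (AT4G35350) and XCP2 (AT1G20850) were both lower. XCP1 had 4.12, 7.71 and 5.85 CPM in NAE 18:3 roots, against 61.4, 50.8 and 67.5 CPM in NAE 18:2 roots (log2 fold change -3.34 ± 0.31 (SE), adjusted p = 0.00013), and XCP2 had 1.22, 3.16 and 2.71 CPM in NAE 18:3 roots, against 39.3, 41.7 and 57.9 CPM in NAE 18:2 roots (log2 fold change -4.29 ± 0.44 (SE), adjusted p = 0.00019).

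The master regulators were at low levels throughout. MYB46 (AT5G12870) had 0.0841, 0.578 and 0.276 CPM in NAE 18:3 roots, against 2.07, 2.36 and 2.66 CPM in NAE 18:2 roots (log2 fold change -2.87 ± 0.52 (SE), adjusted p = 0.002), and MYB83 (AT3G08500) had 0.0841, 0.154 and 0 CPM in NAE 18:3 roots, against 0.759, 1.44 and 1.197 CPM in NAE 18:2 roots (log2 fold change -3.63 ± 0.61 (SE), adjusted p = 0.0014). VND6 (AT5G62380, annotated as NAC101) had 4 counts in all in NAE 18:3 roots and 34 in NAE 18:2 roots, a ratio of NAE 18:2 over NAE 18:3 of 8.6 with a 95% counting interval from 3.07 to 33.4 (edgeR adjusted p = 0.0092). COBL4 (AT5G15630, annotated as IRX6), a COBRA-like protein of secondary walls, changed by -2.33 ± 0.28 (adjusted p = 0.00034), and the chitinase-like CTL2 (AT3G16920) by -5.16 ± 0.53 (adjusted p = 0.0002). The call of VND6 was lost without 1 library, here with the adjusted p-value that remained: NAE 18:3 replicate 1 (VND6 0.026), NAE 18:3 replicate 3 (VND6 0.028), NAE 18:2 replicate 2 (VND6 0.027), NAE 18:2 replicate 3 (VND6 0.031), DMSO replicate 1 (VND6 0.016), DMSO replicate 2 (VND6 0.012) and DMSO replicate 3 (VND6 0.015). With each library left out in turn, log2 fold changes ran from -5.44 to -3.64 for CESA8, -3.73 to -2.39 for MYB46, -4.42 to -3.17 for MYB83 and -5.78 to -4.77 for CTL2.

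Lignin genes were lower at both ends of the pathway. Of 21 tested genes of the phenylpropanoid and lignin path, 13 were lower and 0 higher, the median being -1.49, with medians against DMSO of -2.97 for NAE 18:3 and -0.94 for NAE 18:2. PAL1 (AT2G37040), the entry enzyme, had 90.7, 196 and 107 CPM in NAE 18:3 roots, against 653, 534 and 455 CPM in NAE 18:2 roots (log2 fold change -2.06 ± 0.28 (SE), adjusted p = 0.00063), and 967, 891 and 1088 CPM in DMSO roots. LAC4 (AT2G38080, annotated as IRX12), which polymerizes lignin in vessels, had 0.589, 1.08 and 0.276 CPM in NAE 18:3 roots, against 22.4, 20.1 and 31.1 CPM in NAE 18:2 roots (log2 fold change -5.17 ± 0.55 (SE), adjusted p = 0.00023). LAC17 (AT5G60020) changed by -3.90 ± 0.54 (adjusted p = 0.00065), but 2266 of its 2467 bases lie under AT5G60022 on the opposite strand, and whether counting used the strand is not stated. The ligase 4CL1 (AT1G51680) changed by -2.30 ± 0.41 (adjusted p = 0.0021). 4CL1 missed the threshold with 1 library fewer, with adjusted p-values after leaving out NAE 18:3 replicate 1 (4CL1 0.0102).

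Phloem and cytokinin response genes were lower too. Of 16 tested phloem genes, 9 were lower and 0 higher (median -1.60). SUC2 (AT1G22710), the sucrose loader of companion cells, had 2.19, 3.35 and 2.65 CPM in NAE 18:3 roots, against 80.3, 32.5 and 69.2 CPM in NAE 18:2 roots (log2 fold change -4.47 ± 0.54 (SE), adjusted p = 0.00038), and 59.3, 18.3 and 25.9 CPM in DMSO roots. PP2-A1 (AT4G19840), a lectin of companion cells, had 0.631, 1.46 and 1.66 CPM in NAE 18:3 roots, against 37.8, 24.1 and 33.3 CPM in NAE 18:2 roots (log2 fold change -4.68 ± 0.51 (SE), adjusted p = 0.00025), and SEOR1 (AT3G01680), a filament protein of sieve elements, changed by -3.34 ± 0.56 (adjusted p = 0.0016). The type-A ARR genes, quickly induced by cytokinin and feeding back on its signaling, had 7 of 9 tested members lower and 0 higher (median -2.67). ARR6 (AT5G62920) had 0.4205, 0.424 and 0.1104 CPM in NAE 18:3 roots, against 13.7, 12.7 and 22.2 CPM in NAE 18:2 roots (log2 fold change -5.58 ± 0.51 (SE), adjusted p = 0.00013), and ARR5 (AT3G48100, annotated as RR5) had 2.19, 2.97 and 2.93 CPM in NAE 18:3 roots, against 30.1, 24.1 and 50.4 CPM in NAE 18:2 roots (log2 fold change -3.69 ± 0.46 (SE), adjusted p = 0.00042). In ARR6, ARR5 and SUC2 the highest NAE 18:3 library lay under the lowest library of both other treatments.

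Root hair genes and genes of wall extension formed a further reduced group. Hairs arise from files of the epidermis in which RHD6 and then RSL4 act, and their walls carry extensins and hair-specific expansins. Of 30 tested root hair genes 11 were lower and 2 higher, with a median of -1.59. The count of lower genes was 7 without NAE 18:3 replicate 1 and 6 without NAE 18:3 replicate 3, and that of higher genes was 1 without NAE 18:2 replicate 1, 1 without NAE 18:2 replicate 2, 1 without NAE 18:3 replicate 1 and 1 without NAE 18:3 replicate 3. RHD6 (AT1G66470) had 5.72, 6.398 and 4.31 CPM in NAE 18:3 roots, against 17.1, 22.5 and 14.01 CPM in NAE 18:2 roots (log2 fold change -1.70 ± 0.21 (SE), adjusted p = 0.00034), with 28.9, 24.4 and 31.2 CPM in DMSO roots. LRL3 (AT5G58010), a bHLH factor of hair growth, had 0.589, 1.19 and 0.331 CPM in NAE 18:3 roots, against 17.6, 25.6 and 24.1 CPM in NAE 18:2 roots (log2 fold change -4.93 ± 0.43 (SE), adjusted p = 0.00012). XTH14 (AT4G25820), a wall enzyme, changed by -4.04 ± 0.43 (adjusted p = 0.00024), EXPA7 (AT1G12560) by -4.20 ± 0.77 (adjusted p = 0.0023) and LRX1 (AT1G12040) by -3.95 ± 0.81 (adjusted p = 0.0039). The calls of EXPA7 and LRX1 were lost without 1 library, here with the adjusted p-value that remained: NAE 18:3 replicate 1 (EXPA7 0.012, LRX1 0.017), NAE 18:3 replicate 2 (LRX1 0.013) and NAE 18:3 replicate 3 (EXPA7 0.011, LRX1 0.017). The log2 fold change ran from -5.54 to -4.63 for LRL3, -4.84 to -3.36 for EXPA7 and -4.29 to -3.08 for LRX1 as single libraries were left out.

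The 2 higher members, CPC (AT2G46410) and TRY (AT5G53200), are single-repeat MYB proteins known to promote the hair fate in the root epidermis. CPC had 42.8, 30.3 and 29.3 CPM in NAE 18:3 roots, against 11.6, 9.57 and 12.6 CPM in NAE 18:2 roots (log2 fold change 1.60 ± 0.17 (SE), adjusted p = 0.00021), and 14.2, 16.4 and 13.9 CPM in DMSO roots. TRY had 3.196, 1.73 and 2.82 CPM in NAE 18:3 roots, against 0.675, 0.722 and 1.02 CPM in NAE 18:2 roots (log2 fold change 1.67 ± 0.33 (SE), adjusted p = 0.0032). TRY missed the threshold with 1 library fewer, with adjusted p-values after leaving out NAE 18:3 replicate 1 (TRY 0.012), NAE 18:3 replicate 3 (TRY 0.011), NAE 18:2 replicate 1 (TRY 0.013) and NAE 18:2 replicate 2 (TRY 0.013). WER (AT5G14750, annotated as MYB66) and GL2 (AT1G79840), which specify non-hair cells, were not called. WER had 0.51 ± 0.23 (adjusted p = 0.086), and GL2 had 0.40 ± 0.09 (adjusted p = 0.0073), both on the log2 scale.

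Class III peroxidases are secreted enzymes that cross-link walls or form radicals. The list, matched by annotation, had 39 of 54 tested members lower and 0 higher, with a median of -3.08. The 39 include DOX1, an alpha-dioxygenase described below. Extensins had 10 of 16 lower and 0 higher (median -3.36), and this count was 6 without NAE 18:3 replicate 3. EXT4 (AT1G76930) had 30.2, 175 and 42.5 CPM in NAE 18:3 roots, against 1189.8, 1694 and 1285 CPM in NAE 18:2 roots (log2 fold change -4.07 ± 0.66 (SE), adjusted p = 0.0014). EXT3 (AT1G21310), among the most abundant called genes, had 203, 669.5 and 326 CPM in NAE 18:3 roots, against 2639, 3078 and 2830.1 CPM in NAE 18:2 roots (log2 fold change -2.83 ± 0.40 (SE), adjusted p = 0.00075), although 522 of its 1765 bases lie under a gene on the opposite strand. NAE 18:3 replicate 2 held several times the level of the other NAE 18:3 libraries in EXT4 and stood highest in EXT3, yet remained under every NAE 18:2 library. Over the 9 fits that each left out 1 root library, the log2 fold change ran from -5.24 to -3.65 for EXT4. Expansins had 7 of 16 lower and 0 higher (median -1.45), and the lower count was 4 without NAE 18:3 replicate 1 and 3 without NAE 18:3 replicate 3. Xyloglucan endotransglucosylases had 9 of 27 lower and 1 higher (median -1.46), and fasciclin-like arabinogalactan proteins 6 of 15 lower and 0 higher (median -0.56). Pectin lyases and methylesterases had 24 of 106 lower and 1 higher (median -0.71), the lower count being 14 without NAE 18:3 replicate 1. The 24 lower genes were 22.6% of the list, beside 15.3% of all genes tested. DOX1 (AT3G01420), an alpha-dioxygenase that oxidizes fatty acids and is annotated among the peroxidases, had 3.53, 12.7 and 8.28 CPM in NAE 18:3 roots, against 215, 421 and 347 CPM in NAE 18:2 roots (log2 fold change -5.32 ± 0.55 (SE), adjusted p = 0.0002), with 158, 81.4 and 69.02 CPM in DMSO roots.

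Nutrient and water transport genes were lower as well. Of 14 tested nitrogen genes 8 were lower and 0 higher (median -1.82), and against DMSO 8 were lower with NAE 18:3 and 4 with NAE 18:2. AMT1;2 (AT1G64780), an ammonium transporter of the endodermis and cortex, had 2.48, 2.66 and 2.26 CPM in NAE 18:3 roots, against 36.2, 66.3 and 32.02 CPM in NAE 18:2 roots (log2 fold change -4.17 ± 0.31 (SE), adjusted p = 7.8e-05), and 163, 119.6 and 118 CPM in DMSO roots. NPF6.3 (AT1G12110, annotated as NRT1.1), the nitrate transporter and sensor, had 13.3, 34.4 and 16.2 CPM in NAE 18:3 roots, against 97.8, 206 and 91.1 CPM in NAE 18:2 roots (log2 fold change -2.62 ± 0.46 (SE), adjusted p = 0.002), and 784, 538 and 1033 CPM in DMSO roots. For both the order of the groups was NAE 18:3, NAE 18:2, DMSO from low to high without overlap. NRT2.1 (AT1G08090, annotated as NRT2:1), of the high-affinity system, kept that order too, with 0.126, 0.848 and 0.994 CPM in NAE 18:3 roots, against 4.89, 14.5 and 5.54 CPM in NAE 18:2 roots, and 90.5, 51.4 and 101 CPM in DMSO roots (log2 fold change between the NAEs -3.69 ± 0.65, adjusted p = 0.002). Its partner NRT3.1 (AT5G50200, annotated as WR3) changed by -2.84 ± 0.40 (adjusted p = 0.00075). The call of NPF6.3 was lost without 1 library, here with the adjusted p-value that remained: NAE 18:3 replicate 3 (NPF6.3 0.0102). With each library left out in turn, log2 fold changes ran from -4.04 to -3.02 for NRT2.1.

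Among 23 tested transporters of phosphate, sulfate, boron and metals 14 were lower and 0 higher (median -1.77), and against DMSO 20 were lower with NAE 18:3 and 10 with NAE 18:2. PHO1 (AT3G23430), which loads phosphate into the xylem, had 9.12, 11.7 and 14.9 CPM in NAE 18:3 roots, against 82.5, 83.8 and 116 CPM in NAE 18:2 roots (log2 fold change -2.99 ± 0.26 (SE), adjusted p = 0.00012). PHT1;1 (AT5G43350), a phosphate importer, had 18.7, 26.9 and 19.2 CPM in NAE 18:3 roots, against 97.3, 147 and 100.1 CPM in NAE 18:2 roots (log2 fold change -2.41 ± 0.27 (SE), adjusted p = 0.00027), and its counts may be shared with AT5G43370, a near copy at 97.7% identity. IRT1 (AT4G19690), the iron importer, had 1.47, 0.655 and 0.221 CPM in NAE 18:3 roots, against 2.15, 2.84 and 1.02 CPM in NAE 18:2 roots, which overlapped (adjusted p = 0.12), although it stood at 23.3, 11.9 and 35.1 CPM in DMSO roots. Aquaporins had 14 of 28 lower and 0 higher (median -1.33), with 20 lower under NAE 18:3 and 10 under NAE 18:2 against DMSO. PIP2;4 (AT5G60660), a water channel of the plasma membrane, had 3.15, 3.43 and 3.75 CPM in NAE 18:3 roots, against 16.8, 40.98 and 26.1 CPM in NAE 18:2 roots (log2 fold change -3.02 ± 0.33 (SE), adjusted p = 0.00025), and TIP2;2 (AT4G17340), of the vacuole membrane, had 18.5, 15.1 and 27.3 CPM in NAE 18:3 roots, against 110.2, 104 and 180.5 CPM in NAE 18:2 roots (log2 fold change -2.70 ± 0.35 (SE), adjusted p = 0.00053). Potassium and sodium transport had 6 of 18 lower and 0 higher (median -0.66), this count being 3 without NAE 18:3 replicate 1 and 3 without NAE 18:3 replicate 3. AKT1 (AT2G26650), the inward channel for potassium, changed by -1.56 ± 0.26 (adjusted p = 0.0015), and GORK (AT5G37500), an outward channel, had 15.98, 37.5 and 18.7 CPM in NAE 18:3 roots, against 94.6, 102 and 78.1 CPM in NAE 18:2 roots (log2 fold change -1.92 ± 0.30 (SE), adjusted p = 0.0012), and 14.7, 14.03 and 19.6 CPM in DMSO roots.

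Detoxification genes stood lower under NAE 18:3 than under NAE 18:2, where many were above DMSO. Glutathione S-transferases (GSTs) join glutathione to electrophiles such as oxidized lipids, and UDP-glycosyltransferases of the UGT73 group add sugar to small molecules. Of 36 tested GST genes 20 were lower and 0 higher in NAE 18:3 than in NAE 18:2 roots (median -1.77), and the count was 13 without NAE 18:3 replicate 3. Against DMSO, 8 GST genes were higher with NAE 18:3 and 16 with NAE 18:2, with medians of 0.06 and 1.29. GSTU24 (AT1G17170) had 171, 357 and 174 CPM in NAE 18:3 roots, against 1369.9, 1228 and 1155 CPM in NAE 18:2 roots (log2 fold change -2.42 ± 0.30 (SE), adjusted p = 0.00041), and 79.9, 52.9 and 67.8 CPM in DMSO roots, so that both NAEs stood above DMSO and NAE 18:2 above NAE 18:3. GSTU3 (AT2G29470) had 3.53, 30.7 and 6.96 CPM in NAE 18:3 roots, against 120.0, 95.2 and 115 CPM in NAE 18:2 roots (log2 fold change -2.99 ± 0.66 (SE), adjusted p = 0.0056), and 0.951, 0.3898 and 0.541 CPM in DMSO roots. GSTU8 (AT3G09270) had 19.3, 29.8 and 20.4 CPM in NAE 18:3 roots, against 250.4, 244 and 210.3 CPM in NAE 18:2 roots (log2 fold change -3.34 ± 0.18 (SE), adjusted p = 3.9e-05), and 139, 116 and 117 CPM in DMSO roots, here with NAE 18:3 under DMSO.

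GSTF6 (AT1G02930) and GSTF7 (AT1G02920), neighbouring genes known for induction by pathogens, were also lower. GSTF6 had 74.6, 224 and 110.4 CPM in NAE 18:3 roots, against 1198, 1018 and 748 CPM in NAE 18:2 roots (log2 fold change -2.86 ± 0.38 (SE), adjusted p = 0.00059), and GSTF7 had 53.3, 206 and 64.3 CPM in NAE 18:3 roots, against 1442, 1356 and 849 CPM in NAE 18:2 roots (log2 fold change -3.49 ± 0.53 (SE), adjusted p = 0.001). Of 7 tested UGT73B and UGT73C genes, 2 were lower and 0 higher, all 7 had a negative log2 fold change, and the medians against DMSO were 2.48 with NAE 18:3 and 3.52 with NAE 18:2. UGT73B2 (AT4G34135), active on flavonoids, had 53.5, 169.6 and 62.8 CPM in NAE 18:3 roots, against 527, 419.7 and 446 CPM in NAE 18:2 roots (log2 fold change -2.28 ± 0.43 (SE), adjusted p = 0.0027), and 24.9, 13.3 and 18.1 CPM in DMSO roots. UGT73B1 (AT4G34138), the other called member, changed by -2.98 ± 0.55 (adjusted p = 0.0025), and 1015 of its 2207 bases lie under AT4G34139 on the opposite strand. Within the NAE 18:3 group replicate 2 was the highest in each of these genes. GSTU3, UGT73B2 and UGT73B1 missed the threshold with 1 library fewer, with adjusted p-values after leaving out NAE 18:3 replicate 3 (GSTU3 0.022, UGT73B2 0.012, UGT73B1 0.012), NAE 18:2 replicate 1 (GSTU3 0.015), NAE 18:2 replicate 2 (GSTU3 0.013), NAE 18:2 replicate 3 (GSTU3 0.015) and DMSO replicate 3 (GSTU3 0.0102). The log2 fold change ran from -4.39 to -2.51 for GSTU3, -4.35 to -3.14 for GSTF7, -2.98 to -1.97 for UGT73B2 and -3.76 to -2.57 for UGT73B1 as single libraries were left out. The UGT73 count was 6 without NAE 18:3 replicate 2 and 0 without NAE 18:3 replicate 3.

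**Figure D4:**
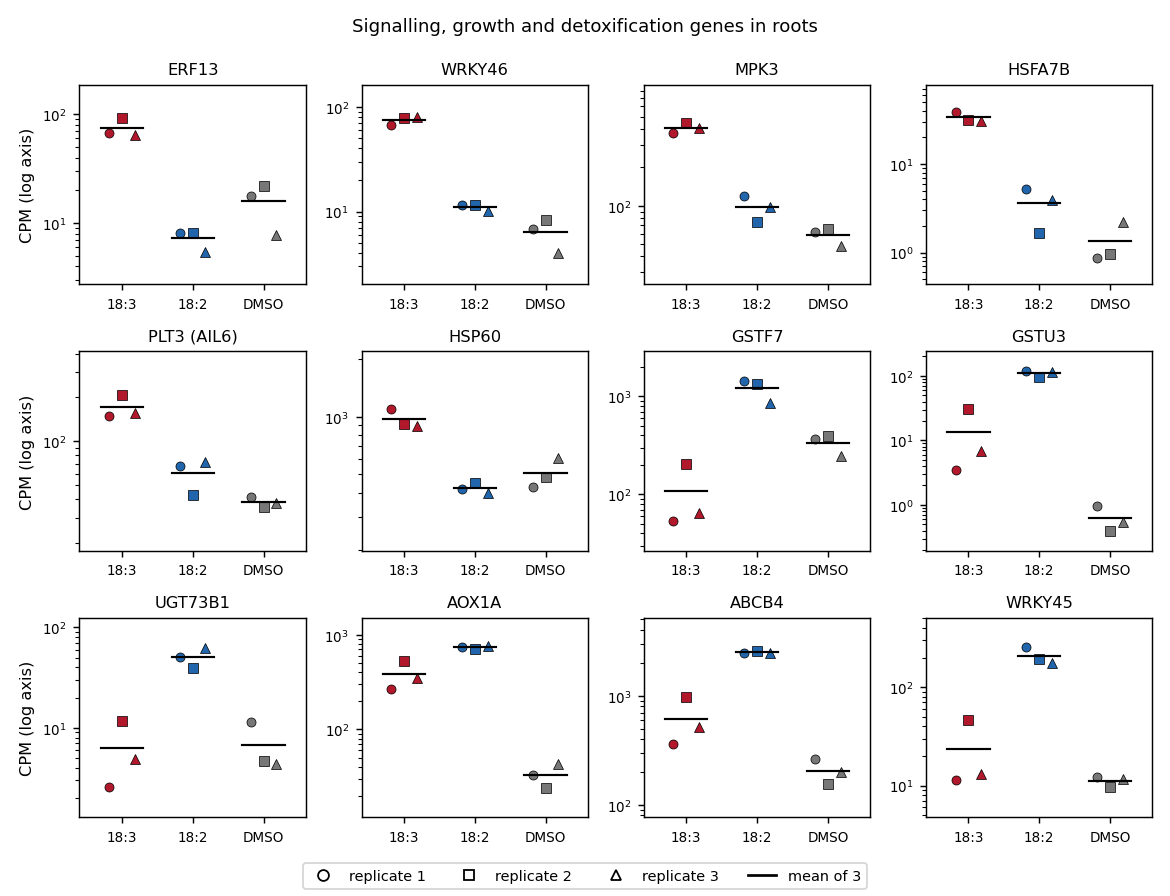
Points are single root libraries on a log axis of CPM, each panel runs from the roots of NAE 18:3 over those of NAE 18:2 to DMSO, and the line marks the mean of the 3 libraries. WRKY46, ERF13, MPK3, HSFA7B, PLT3 and HSP60 stand highest under NAE 18:3, whereas GSTF7, GSTU3, UGT73B1, ABCB4 and WRKY45 stand highest under NAE 18:2.

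The promoters of GSTU3 and UGT73B1 are shown because they hold the as-1 core TGACG, the letters bound by TGA factors, which are known regulators of detoxification genes. They lie at chr2:12629641-12629890, minus strand for GSTU3 and chr4:16350204-16350453, minus strand for UGT73B1, 250 bases before the annotated start on the strand of the gene, 5′ to 3′, and capitals mark TGACG or its reverse complement.
GSTU3: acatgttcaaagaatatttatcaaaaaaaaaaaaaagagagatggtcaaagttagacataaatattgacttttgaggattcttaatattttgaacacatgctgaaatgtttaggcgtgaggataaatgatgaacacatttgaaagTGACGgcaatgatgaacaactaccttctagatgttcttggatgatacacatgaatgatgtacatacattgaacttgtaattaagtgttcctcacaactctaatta
UGT73B1: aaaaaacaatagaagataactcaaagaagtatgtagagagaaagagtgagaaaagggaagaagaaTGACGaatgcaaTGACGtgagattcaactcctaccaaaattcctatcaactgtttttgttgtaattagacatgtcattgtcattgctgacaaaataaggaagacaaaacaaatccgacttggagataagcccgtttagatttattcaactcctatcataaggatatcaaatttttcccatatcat
The as-1 core was found, on either strand, in 15 of 36 promoters of tested GST genes (41.7%), in 19.8% of those of reduced genes, in 22.4% of those of increased genes and in 19.3% of those of all tested genes. These are counts of letters, with no test and no statement on which factor is bound.

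Genes of NAE breakdown showed unequal changes. FAAH (AT5G64440), the hydrolase of NAEs, was not called, its fold change being under 2, with 43.2, 56.04 and 41.8 CPM in NAE 18:3 roots, against 81.4, 94.5 and 83.6 CPM in NAE 18:2 roots (log2 fold change -0.88 ± 0.12, adjusted p = 0.00064), the groups not overlapping. Without NAE 18:3 replicate 2 it was called lower, just past 2-fold (adjusted p = 0.00016). Of the 6 lipoxygenase genes, the 9-lipoxygenases LOX1 (AT1G55020) and LOX5 (AT3G22400) were lower. LOX1 had 15.2, 40.1 and 18.3 CPM in NAE 18:3 roots, against 158, 154 and 97.3 CPM in NAE 18:2 roots (log2 fold change -2.47 ± 0.45 (SE), adjusted p = 0.0023), with 54.04, 59.5 and 23.99 CPM in DMSO roots, and LOX5 changed by -1.44 ± 0.22 (adjusted p = 0.0009). The call of LOX1 was lost without 1 library, here with the adjusted p-value that remained: NAE 18:3 replicate 3 (LOX1 0.011). The 13-lipoxygenases LOX3 (AT1G17420), LOX4 (AT1G72520) and LOX6 (AT1G67560) were not called, with log2 fold changes of 0.78 ± 0.36, -0.07 ± 0.38 and 0.11 ± 0.17. LOX2 (AT3G45140), a chloroplast enzyme, had 0.715, 0.231 and 9.66 CPM in NAE 18:3 roots, against 0.633, 0.144 and 0.222 CPM in NAE 18:2 roots, and the 1 high library is NAE 18:3 replicate 3, the one with raised photosynthesis markers (adjusted p = 0.055).

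In jasmonate synthesis 1 of 13 tested genes was higher and 0 lower. This was AOS (AT5G42650), which takes the product of 13-lipoxygenases, with 213, 183 and 188 CPM in NAE 18:3 roots, against 89.4, 57.96 and 80.4 CPM in NAE 18:2 roots (log2 fold change 1.36 ± 0.16 (SE), adjusted p = 0.00027), and 103, 97.3 and 89.7 CPM in DMSO roots. Ethylene synthesis had 6 of 12 genes lower and 0 higher (median -1.53), and this count was 3 without NAE 18:3 replicate 1 and 3 without NAE 18:3 replicate 3. ACS6 (AT4G11280), an ACC synthase that is a target of MAP kinases, changed by -1.69 ± 0.28 (adjusted p = 0.0014).

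Some abscisic acid genes were lower. Of 11 tested genes of ABA synthesis and breakdown 3 were lower (27.3%) and 0 higher (median -0.74), beside 15.3% and 1.91% of all genes tested. NCED3 (AT3G14440), the rate-limiting enzyme of ABA synthesis under stress, had 3.11, 6.55 and 3.64 CPM in NAE 18:3 roots, against 31.8, 27.7 and 44.8 CPM in NAE 18:2 roots (log2 fold change -2.96 ± 0.36 (SE), adjusted p = 0.00039), and 8.63, 4.52 and 4.72 CPM in DMSO roots. NAE 18:2 roots thus stood above both NAE 18:3 and DMSO roots, and these overlapped with each other. NCED2 (AT4G18350) had 0.925, 1.04 and 1.44 CPM in NAE 18:3 roots, against 0.802, 0.818 and 0.665 CPM in NAE 18:2 roots (log2 fold change 0.56 ± 0.30, adjusted p = 0.14). Of 18 tested ABA signaling genes 4 were lower (22.2%) and 1 higher (5.56%), and the lower count was 2 without NAE 18:3 replicate 1. The related kinases MAPKKK17 and MAPKKK18 went opposite ways. MAPKKK17 (AT2G32510) had 0.589, 2.51 and 1.104 CPM in NAE 18:3 roots, against 8.903, 9.19 and 15.1 CPM in NAE 18:2 roots (log2 fold change -2.96 ± 0.48 (SE), adjusted p = 0.0014), while MAPKKK18 (AT1G05100) had 59.9, 66.4 and 59.7 CPM in NAE 18:3 roots, against 15.6, 17.7 and 21.6 CPM in NAE 18:2 roots (log2 fold change 1.76 ± 0.13 (SE), adjusted p = 5.6e-05), with 1.32, 1.09 and 1.28 CPM in DMSO roots. Both NAEs stood above DMSO in MAPKKK18, NAE 18:3 the higher, without overlap of any pair of groups. Over the 9 fits that each left out 1 root library, the log2 fold change ran from -3.71 to -2.56 for MAPKKK17.

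The phosphatases and regulators of the pathway mostly stayed under the thresholds. The factor ABF2 (AT1G45249) was called lower, with a log2 fold change of -1.24. ABI2 (AT5G57050), a phosphatase that restrains ABA signaling, was lower, with 5.63, 8.94 and 5.08 CPM in NAE 18:3 roots, against 13.8, 12.9 and 14.5 CPM in NAE 18:2 roots (log2 fold change -1.06 ± 0.20 (SE), adjusted p = 0.0025). ABI2 missed the threshold with 1 library fewer, with adjusted p-values after leaving out NAE 18:3 replicate 1 (ABI2 0.012), NAE 18:3 replicate 3 (ABI2 0.0093 with a log2 fold change of -0.91, under 2-fold) and NAE 18:2 replicate 3 (ABI2 0.011). The ABA-induced phosphatases HAI1 (AT5G59220) and HAI2 (AT1G07430) were not called, at -0.30 ± 0.28 (adjusted p = 0.39) for HAI1 and -0.76 ± 0.41 (adjusted p = 0.15) for HAI2. The kinase OST1 (AT4G33950) and the factor ABI5 (AT2G36270) had -0.96 ± 0.25 (adjusted p = 0.012) and -0.54 ± 0.27 (adjusted p = 0.12), and OST1 was called lower without NAE 18:2 replicate 1 (adjusted p = 0.0095). NAC072 (AT4G27410, annotated as RD26), a factor induced by dehydration and ABA, had 3.95, 6.47 and 4.97 CPM in NAE 18:3 roots, against 23.9, 25.4 and 30.9 CPM in NAE 18:2 roots (log2 fold change -2.38 ± 0.20 (SE), adjusted p = 8.9e-05), with 19.9, 15.7 and 15.5 CPM in DMSO roots. Of 18 tested effectors of ABA and cold 4 were lower (22.2%) and 0 higher (median -1.15), beside 15.3% and 1.91% of all genes tested. The lower count was 2 without NAE 18:2 replicate 2, NAE 18:2 replicate 3 or NAE 18:3 replicate 1. It was 8 without NAE 18:3 replicate 2 and 1 without NAE 18:3 replicate 3. The dehydrin COR47 (AT1G20440) had 69.8, 215 and 85.8 CPM in NAE 18:3 roots, against 376, 646 and 587 CPM in NAE 18:2 roots (log2 fold change -2.12 ± 0.43 (SE), adjusted p = 0.0037). The call of COR47 was lost without 1 library, here with the adjusted p-value that remained: NAE 18:3 replicate 1 (COR47 0.012), NAE 18:3 replicate 3 (COR47 0.016), NAE 18:2 replicate 2 (COR47 0.013) and NAE 18:2 replicate 3 (COR47 0.012). With each library left out in turn, log2 fold changes ran from -2.77 to -1.81 for COR47. ERD6 (AT1G08930), a sugar transporter induced by dehydration, had 381, 521 and 430.2 CPM in NAE 18:3 roots, against 513, 336 and 495 CPM in NAE 18:2 roots (adjusted p = 0.96).

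Among the genes higher under NAE 18:3, the 1 gene over 16-fold, AT5G07165, was of low level, with 2.61, 4.51 and 4.31 CPM in NAE 18:3 roots, against 0.169, 0.0481 and 0.266 CPM in NAE 18:2 roots. Of those averaging at least 5 CPM over the NAE libraries, AT4G28703, annotated as a cupin-like protein, had the largest rise, with 56.3, 53.4 and 51.5 CPM in NAE 18:3 roots, against 3.84, 2.45 and 5.01 CPM in NAE 18:2 roots (log2 fold change 3.83 ± 0.22 (SE), adjusted p = 3.9e-05), and 1.72, 1.68 and 1.52 CPM in DMSO roots. ERF13 (AT2G44840), an ethylene response factor, had 67.9, 92.8 and 64.3 CPM in NAE 18:3 roots, against 8.14, 8.13 and 5.45 CPM in NAE 18:2 roots (log2 fold change 3.37 ± 0.37 (SE), adjusted p = 0.00025), and 17.9, 21.9 and 7.77 CPM in DMSO roots. WRKY46 (AT2G46400), a factor of basal defense and drought response, had 67.1, 77.3 and 80.5 CPM in NAE 18:3 roots, against 11.4, 11.4 and 10.11 CPM in NAE 18:2 roots (log2 fold change 2.77 ± 0.22 (SE), adjusted p = 8e-05), and 6.88, 8.23 and 4.03 CPM in DMSO roots. NAE 18:2 roots overlapped with the lowest DMSO library in ERF13 and stood above all DMSO libraries in WRKY46. HSFA7B (AT3G63350), a heat shock factor, had 38.9, 31.4 and 30.97 CPM in NAE 18:3 roots, against 5.27, 1.68 and 3.903 CPM in NAE 18:2 roots (log2 fold change 3.21 ± 0.41 (SE), adjusted p = 0.00049). AT3G56880, a VQ motif protein, of a family that binds WRKY factors, was the most abundant of the 10 genes with the largest rises, with 497, 431 and 414 CPM in NAE 18:3 roots, against 74.7, 57.8 and 71.6 CPM in NAE 18:2 roots (log2 fold change 2.72 ± 0.22 (SE), adjusted p = 8.8e-05).

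The other genes of this group were GH3.1 (AT2G14960), AT1G59660, AT1G63530, AT3G44870 and AT5G22580. GH3.1, of the family that conjugates auxin to amino acids, had 11.98, 17.4 and 16.4 CPM in NAE 18:3 roots, against 1.94, 3.22 and 2.04 CPM in NAE 18:2 roots (log2 fold change 2.67 ± 0.27 (SE), adjusted p = 0.00016), and 19.1, 13.7 and 11.7 CPM in DMSO roots, so that NAE 18:3 roots were at the DMSO level and NAE 18:2 roots below it. AT1G59660, a nucleoporin, had 315, 250.1 and 138 CPM in NAE 18:3 roots, against 30.3, 24.3 and 27.3 CPM in NAE 18:2 roots (log2 fold change 3.1 ± 0.27 (SE), adjusted p = 0.00012), and 15.4, 15.01 and 14.9 CPM in DMSO roots. AT1G63530, of unknown role, changed by 2.80 ± 0.35 (adjusted p = 0.00043), AT3G44870, a methyltransferase, by 2.72 ± 0.30 (adjusted p = 0.00028) and AT5G22580, a stress-responsive barrel protein, by 2.62 ± 0.23 (adjusted p = 0.0001).

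The promoters of WRKY46, ERF13 and AT3G56880 are shown for the W-box core TTGAC in genes that rose. They lie at chr2:19044956-19045205, minus strand for WRKY46, chr2:18494965-18495214, plus strand for ERF13 and chr3:21059535-21059784, plus strand for AT3G56880, 250 bases before the annotated start, 5′ to 3′ on the strand of the gene, and capitals mark TTGAC or its reverse complement.
WRKY46: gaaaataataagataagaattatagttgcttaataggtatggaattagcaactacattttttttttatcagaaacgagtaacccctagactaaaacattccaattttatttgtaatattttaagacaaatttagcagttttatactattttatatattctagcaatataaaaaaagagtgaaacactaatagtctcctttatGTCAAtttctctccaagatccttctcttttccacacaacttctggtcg
ERF13: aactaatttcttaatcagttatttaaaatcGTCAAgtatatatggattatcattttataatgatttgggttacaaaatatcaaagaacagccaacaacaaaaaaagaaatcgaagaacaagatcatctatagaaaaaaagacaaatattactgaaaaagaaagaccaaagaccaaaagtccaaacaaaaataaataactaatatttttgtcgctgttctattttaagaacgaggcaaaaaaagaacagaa
AT3G56880: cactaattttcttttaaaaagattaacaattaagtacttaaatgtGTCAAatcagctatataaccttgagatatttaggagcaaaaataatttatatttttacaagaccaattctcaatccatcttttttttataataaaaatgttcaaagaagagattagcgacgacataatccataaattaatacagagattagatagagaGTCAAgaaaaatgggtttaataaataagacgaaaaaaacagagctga
The G-box CACGTG, bound by bHLH and bZIP factors, was in 51 of 384 promoters of increased genes (13.3%), in 4.8% of those of reduced genes and in 7.3% of those of all tested genes. The CGCG box, searched as CGCGT and bound by calmodulin-binding CAMTA factors, was in 11.7% of the promoters of increased genes, 6.26% of those of reduced genes and 7.57% of those of all tested genes. These shares are descriptions, and the letters ACGTG of the ABRE core, present in 28.4%, 25.2% and 23.8% of the same promoters in that order, lie inside CACGTG.

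WRKY factors, whose members act for and against defense and in nutrition and hair growth, split. Of 63 tested genes 6 were higher and 19 lower (median -0.31). The higher members included WRKY18 (AT4G31800) and WRKY40 (AT1G80840), paired regulators of defense and ABA response. WRKY40 had 448, 517 and 405 CPM in NAE 18:3 roots, against 153, 101 and 106 CPM in NAE 18:2 roots (log2 fold change 1.93 ± 0.18 (SE), adjusted p = 0.00012), with 60.2, 62.2 and 52.6 CPM in DMSO roots, and WRKY18 had 57.6, 65.5 and 70.6 CPM in NAE 18:3 roots, against 18.4, 18.1 and 15.3 CPM in NAE 18:2 roots (log2 fold change 1.9 ± 0.13 (SE), adjusted p = 4.5e-05), with 33.3, 41.5 and 35.2 CPM in DMSO roots. In WRKY18 the NAEs lay on either side of DMSO. WRKY22 (AT4G01250), a factor downstream of a MAP kinase path, changed by 1.63 ± 0.33 (adjusted p = 0.0038), and WRKY33 (AT2G38470) had 564, 691 and 599.6 CPM in NAE 18:3 roots, against 609.9, 355 and 442 CPM in NAE 18:2 roots (adjusted p = 0.12), with 114, 90.1 and 85.2 CPM in DMSO roots.

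The reduced WRKY genes reached larger folds. WRKY31 (AT4G22070) had 1.47, 5.395 and 2.32 CPM in NAE 18:3 roots, against 82.7, 102 and 86.2 CPM in NAE 18:2 roots (log2 fold change -4.86 ± 0.51 (SE), adjusted p = 0.00022). WRKY45 (AT3G01970) had 11.5, 46.4 and 13.1 CPM in NAE 18:3 roots, against 255, 195 and 177 CPM in NAE 18:2 roots (log2 fold change -3.14 ± 0.50 (SE), adjusted p = 0.0013), and 12.3, 9.59 and 11.8 CPM in DMSO roots. WRKY75 (AT5G13080), known for phosphate starvation and root growth, had 6.602, 24.8 and 11.4 CPM in NAE 18:3 roots, against 109.6, 67.97 and 64.2 CPM in NAE 18:2 roots (log2 fold change -2.49 ± 0.47 (SE), adjusted p = 0.0028), with 12.9, 6.24 and 9.59 CPM in DMSO roots. WRKY45 and WRKY75 thus stood high in NAE 18:2 roots and near DMSO in NAE 18:3 roots. WRKY22 and WRKY75 missed the threshold with 1 library fewer, with adjusted p-values after leaving out NAE 18:3 replicate 3 (WRKY22 0.014, WRKY75 0.013). The log2 fold change ran from -5.58 to -4.49 for WRKY31, -4.07 to -2.78 for WRKY45 and -3.15 to -2.12 for WRKY75 as single libraries were left out.

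MAP kinase cascades pass signals from membrane receptors to such factors. Of 46 tested members 5 were higher (10.9%) and 4 lower (8.70%), beside 1.91% and 15.3% of all genes tested. MPK3 (AT3G45640), a terminal kinase of defense signaling, had 369, 441 and 405 CPM in NAE 18:3 roots, against 119, 73.9 and 97.9 CPM in NAE 18:2 roots (log2 fold change 2.06 ± 0.19 (SE), adjusted p = 0.00012), and 61.9, 65.3 and 48.3 CPM in DMSO roots, while MPK6 (AT2G43790), which acts beside it, had 139.7, 139.9 and 138 CPM in NAE 18:3 roots, against 116, 104 and 117 CPM in NAE 18:2 roots (log2 fold change 0.31 ± 0.08, adjusted p = 0.012). MKK9 (AT1G73500), a kinase that activates both, had 256, 252 and 213 CPM in NAE 18:3 roots, against 72.8, 34.3 and 66.7 CPM in NAE 18:2 roots (log2 fold change 2.05 ± 0.27 (SE), adjusted p = 0.00055). MAPKKK21 (AT4G36950) changed by 2.49 ± 0.36 (adjusted p = 0.00084). In MPK3 and MKK9 each NAE 18:3 library lay above each NAE 18:2 library, and NAE 18:2 in turn above DMSO.

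Of 12 defense ERF genes 4 were higher and 1 lower (median 0.58). ERF5 (AT5G47230) had 158, 164 and 165 CPM in NAE 18:3 roots, against 81.3, 58.7 and 63.6 CPM in NAE 18:2 roots (log2 fold change 1.26 ± 0.13 (SE), adjusted p = 0.00017), ERF6 (AT4G17490) had 519.8, 527 and 444 CPM in NAE 18:3 roots, against 282, 120.1 and 210.3 CPM in NAE 18:2 roots (log2 fold change 1.28 ± 0.27 (SE), adjusted p = 0.0045), and ERF2 (AT5G47220) changed by 1.46 ± 0.27 (adjusted p = 0.0025). The lower member, CEJ1 (AT3G50260), an AP2/ERF factor of ethylene and jasmonate response, had 7.78, 38.2 and 11.3 CPM in NAE 18:3 roots, against 198, 157 and 156 CPM in NAE 18:2 roots (log2 fold change -3.15 ± 0.52 (SE), adjusted p = 0.0015), with 22.4, 17.1 and 17.6 CPM in DMSO roots, so that NAE 18:3 and DMSO roots overlapped and NAE 18:2 roots stood above both. The call of ERF6 was lost without 1 library, here with the adjusted p-value that remained: NAE 18:3 replicate 1 (ERF6 0.013), NAE 18:3 replicate 3 (ERF6 0.011) and NAE 18:2 replicate 3 (ERF6 0.016). Over the 9 fits that each left out 1 root library, the log2 fold change ran from -4.14 to -2.75 for CEJ1.

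Receptors for chitin and other patterns had 1 of 19 genes higher (5.26%) and 2 lower (10.5%), beside 1.91% and 15.3% of all genes tested. LYK5 (AT2G33580), a receptor kinase that binds chitin, had 44.2, 58.97 and 70.3 CPM in NAE 18:3 roots, against 29.7, 25.1 and 26.2 CPM in NAE 18:2 roots (log2 fold change 1.1 ± 0.16 (SE), adjusted p = 0.00075), with 10.02, 9.36 and 10.7 CPM in DMSO roots. LYK4 (AT2G23770), a related receptor, had 4.96, 11.1 and 6.24 CPM in NAE 18:3 roots, against 43.7, 42.5 and 41.6 CPM in NAE 18:2 roots (log2 fold change -2.51 ± 0.31 (SE), adjusted p = 0.00041). LYK5 missed the threshold with 1 library fewer, with adjusted p-values after leaving out NAE 18:3 replicate 3 (LYK5 0.0025 with a log2 fold change of 0.94, under 2-fold). PBL27 (AT5G18610), which links the chitin receptor to MAP kinases, had 61.1, 70.1 and 62.1 CPM in NAE 18:3 roots, against 49.4, 42.2 and 50.7 CPM in NAE 18:2 roots, below the 2-fold threshold (log2 fold change 0.44 ± 0.11, adjusted p = 0.008). CML38 (AT1G76650), a calmodulin-like protein, had 218, 307 and 209.8 CPM in NAE 18:3 roots, against 214, 115 and 121 CPM in NAE 18:2 roots (adjusted p = 0.13), and the oxidase RBOHD (AT5G47910) had 53.2, 134 and 97.3 CPM in NAE 18:3 roots, against 261, 189 and 176 CPM in NAE 18:2 roots (log2 fold change -1.14 ± 0.30, adjusted p = 0.012). CML38 overlapped between the NAEs, and RBOHD did not but missed the threshold, which it passed without NAE 18:3 replicate 2 (adjusted p = 0.0031) and by DESeq2 (adjusted p = 0.00059). NPR3 (AT5G45110), a salicylic acid receptor, was higher, with 355, 388 and 352 CPM in NAE 18:3 roots, against 151, 127 and 131 CPM in NAE 18:2 roots (log2 fold change 1.42 ± 0.15 (SE), adjusted p = 0.00017).

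Heat shock factors had 4 of 18 members higher (22.2%) and 1 lower (5.56%). Cytosolic and organelle chaperones had 2 of 31 higher (6.45%) and 1 lower (3.23%), with a median of 0.43. Of all genes tested 1.91% were higher and 15.3% lower. HSFB2A (AT5G62020) had 82.5, 90.5 and 63.7 CPM in NAE 18:3 roots, against 40.04, 30.7 and 31.9 CPM in NAE 18:2 roots (log2 fold change 1.21 ± 0.19 (SE), adjusted p = 0.0011), and HSFA6B (AT3G22830) changed by 1.41 ± 0.24 (adjusted p = 0.0015). The higher chaperones were of mitochondria: HSP60 (AT3G23990) had 1100.2, 918 and 898 CPM in NAE 18:3 roots, against 419.5, 449.7 and 398 CPM in NAE 18:2 roots (log2 fold change 1.2 ± 0.15 (SE), adjusted p = 0.00037), and Hsp89.1 (AT3G07770) changed by 1.04 ± 0.13 (adjusted p = 0.00042). The call of Hsp89.1 was lost without 1 library, here with the adjusted p-value that remained: NAE 18:3 replicate 1 (Hsp89.1 0.0015 with a log2 fold change of 0.97, under 2-fold) and NAE 18:2 replicate 1 (Hsp89.1 0.0013 with a log2 fold change of 0.95, under 2-fold). The 1 lower call among heat shock factors was lost in each of the 8 fits without another library than NAE 18:3 replicate 2, without which 3 were lower.

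Genes of the growing tip were mostly not reduced. Of 20 tested regulators of the root meristem 5 were higher and 1 lower (median 0.26), the higher count being 3 without NAE 18:3 replicate 1. PLT3 (AT5G10510, annotated as AIL6) had 149.5, 207 and 156 CPM in NAE 18:3 roots, against 67.3, 42.7 and 71.9 CPM in NAE 18:2 roots (log2 fold change 1.49 ± 0.20 (SE), adjusted p = 0.00057), and 41.3, 35.6 and 37.5 CPM in DMSO roots. BBM (AT5G17430) had 41.96, 50.99 and 47.3 CPM in NAE 18:3 roots, against 19.8, 13.6 and 23.9 CPM in NAE 18:2 roots (log2 fold change 1.29 ± 0.19 (SE), adjusted p = 0.00073), and PLT2 (AT1G51190) had 25.3, 19.8 and 25.9 CPM in NAE 18:3 roots, against 9.83, 9.24 and 11.5 CPM in NAE 18:2 roots (log2 fold change 1.21 ± 0.14 (SE), adjusted p = 0.00025), with 17.5, 19.3 and 17.9 CPM in DMSO roots. These AP2 factors keep stem cells of the root, and each was without overlap between the NAEs. PLT1 (AT3G20840), of the same family, had 26.8, 20.7 and 20.4 CPM in NAE 18:3 roots, against 16.5, 16.5 and 20.4 CPM in NAE 18:2 roots (adjusted p = 0.075). TMO7 (AT1G74500, annotated as BS1), a small mobile factor of embryonic root formation, had 153, 105 and 121 CPM in NAE 18:3 roots, against 56.8, 65.8 and 56.2 CPM in NAE 18:2 roots (log2 fold change 1.08 ± 0.16 (SE), adjusted p = 0.00088). TMO7 missed the threshold with 1 library fewer, with adjusted p-values after leaving out NAE 18:3 replicate 1 (TMO7 0.0023 with a log2 fold change of 0.95, under 2-fold).

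Mitotic cyclins and CDKB kinases had 1 of 23 members higher and 0 lower, with a median of 0.45. The called gene was CYCA2;4 (AT1G80370), with 60.1, 47.4 and 65.03 CPM in NAE 18:3 roots, against 28.4, 23.7 and 28.2 CPM in NAE 18:2 roots (log2 fold change 1.1 ± 0.17 (SE), adjusted p = 0.001). Genes annotated as ribosomal proteins, a set that takes in a few of organelles and some translation factors, had 3 of 118 members higher and 0 lower, a share of 2.54% beside 1.91% of all genes. Their median was 0.74, only 5 of 118 had a negative log2 fold change, and the medians against DMSO were 0.30 with NAE 18:3 and -0.48 with NAE 18:2. The count of higher genes was 7 without NAE 18:2 replicate 1, 8 without NAE 18:2 replicate 2, 1 without NAE 18:3 replicate 1 and 32 without NAE 18:3 replicate 2, and it was 22 with upper-quartile scaling and 26 with scaling and spread from all 27 libraries. AT2G25210, a protein of the L39 family, had 266, 189 and 234 CPM in NAE 18:3 roots, against 117, 114 and 103 CPM in NAE 18:2 roots (log2 fold change 1.04 ± 0.16 (SE), adjusted p = 0.00095), with 154, 216 and 174 CPM in DMSO roots, and AT5G47700, an acidic protein of the large subunit, changed by 1.02 ± 0.18 (adjusted p = 0.002).

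Among auxin response genes, as among all genes tested (15.3% lower, 1.91% higher), more members were reduced than increased. Of 33 tested Aux/IAA repressors and GH3 enzymes 12 were lower and 1 higher (median -0.84). GH3.3 (AT2G23170) had 0.757, 3.93 and 0.939 CPM in NAE 18:3 roots, against 23.9, 46.7 and 41.5 CPM in NAE 18:2 roots (log2 fold change -4.27 ± 0.57 (SE), adjusted p = 0.00059), and 3.18, 3.27 and 4.97 CPM in DMSO roots. With each library left out in turn, log2 fold changes ran from -5.45 to -3.86 for GH3.3. The influx carrier LAX3 (AT1G77690) changed by -1.89 ± 0.21 (adjusted p = 0.00025). ABCB4 (AT2G47000), a root auxin transporter, had 360.2, 980.2 and 513 CPM in NAE 18:3 roots, against 2439, 2596 and 2472 CPM in NAE 18:2 roots (log2 fold change -2.02 ± 0.35 (SE), adjusted p = 0.0018), and 262, 155 and 200.4 CPM in DMSO roots, with both NAEs above DMSO. SAUR genes had 8 of 36 lower (22.2%) and 2 higher (5.56%), with a median of -0.57. The higher count was 0 without NAE 18:2 replicate 2 and 1 without any other of the NAE libraries.

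The remaining genes that the study discusses in NAE-treated roots were not called. Over all 30 of them, 12 were lower and 2 higher (median -0.95), and since the study chose them on these libraries their count is no independent evidence. CTL1 (AT1G05850, annotated as POM1), a chitinase-like protein of primary walls, had 118, 153 and 150.1 CPM in NAE 18:3 roots, against 218, 305 and 286 CPM in NAE 18:2 roots (log2 fold change -0.94 ± 0.15, adjusted p = 0.0011) and was called lower without NAE 18:2 replicate 1 (POM1 -1.06), and COB (AT5G60920), which guides cell expansion, had a log2 fold change of -0.55 ± 0.15 (adjusted p = 0.014). XTH13 (AT5G57540) had 0.126, 0.154 and 0 CPM in NAE 18:3 roots, against 0.591, 0.722 and 0.222 CPM in NAE 18:2 roots (adjusted p = 0.028), far under the 15.5, 7.17 and 9.64 CPM in DMSO roots. GLK2 (AT5G44190), a factor of chloroplast development, and SPT (AT4G36930), a bHLH factor that limits organ growth, had log2 fold changes of 0.19 ± 0.24 (adjusted p = 0.53) for GLK2 and 0.02 ± 0.12 (adjusted p = 0.9) for SPT.

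The most abundant reduced genes came from detoxification, walls, ER bodies and auxin transport. The most abundant increased genes came from protein folding, nuclear transport, stress response and ribosomes. GSTU19 (AT1G78380) had 930.3, 1310.4 and 816 CPM in NAE 18:3 roots, against 4290.1, 3177 and 3879 CPM in NAE 18:2 roots (log2 fold change -1.89 ± 0.22 (SE), adjusted p = 0.00028), with 674, 473 and 584 CPM in DMSO roots. PYK10 (AT3G09260), the beta-glucosidase of ER bodies in roots, had 686, 1163 and 1071 CPM in NAE 18:3 roots, against 3558, 2969 and 2855 CPM in NAE 18:2 roots (log2 fold change -1.68 ± 0.29 (SE), adjusted p = 0.0017), with 5539, 4027 and 2594 CPM in DMSO roots. Together with EXT3 and ABCB4, given above, and DJ1A (AT3G14990), a glyoxalase-like protein with 989.8, 1342 and 987 CPM in NAE 18:3 roots, against 2622, 1853 and 2440.3 CPM in NAE 18:2 roots (log2 fold change -1.06 ± 0.21 (SE), adjusted p = 0.0029), these were the 5 most abundant reduced genes. The call of DJ1A was lost without 1 library, here with the adjusted p-value that remained: NAE 18:3 replicate 1 (DJ1A 0.013), NAE 18:3 replicate 3 (DJ1A 0.014), NAE 18:2 replicate 1 (DJ1A 0.011) and NAE 18:2 replicate 3 (DJ1A 0.012). The 5 most abundant increased genes were HSP60, given above, CZF1 (AT2G40140), a zinc finger protein induced by stress, EMB1080 (AT3G48930), a ribosomal protein, and the nuclear transport GTPases RAN-1 (AT5G20010) and RAN2 (AT5G20020). CZF1 had 922, 1147 and 971 CPM in NAE 18:3 roots, against 446, 262 and 390.4 CPM in NAE 18:2 roots (log2 fold change 1.47 ± 0.21 (SE), adjusted p = 0.00063). RAN-1 had 844, 607 and 704 CPM in NAE 18:3 roots, against 292, 294 and 335 CPM in NAE 18:2 roots (log2 fold change 1.23 ± 0.14 (SE), adjusted p = 0.00028), RAN2 changed by 1.00 ± 0.15 (adjusted p = 0.00086) and EMB1080 by 1.05 ± 0.16 (adjusted p = 0.001). RAN2 and EMB1080 missed the threshold with 1 library fewer, with adjusted p-values after leaving out NAE 18:3 replicate 1 (RAN2 0.0029 with a log2 fold change of 0.92, under 2-fold, EMB1080 0.0034 with a log2 fold change of 0.95, under 2-fold), NAE 18:3 replicate 3 (RAN2 0.0044 with a log2 fold change of 0.98, under 2-fold) and NAE 18:2 replicate 1 (RAN2 0.0037 with a log2 fold change of 0.98, under 2-fold).

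The same contrast in cotyledons of seedlings treated alike shows whether these differences held outside the root. In a fit of 18 root and cotyledon libraries, 693 of 21433 genes were higher (3.23%) and 98 lower (0.457%) in NAE 18:3 than in NAE 18:2 cotyledons, 3.69% in either direction. The difference of the contrasts, roots minus cotyledons, was called in 2985 genes in the negative direction (13.9%) and 1435 in the positive (6.7%), 20.6% of the genes in either direction. Of the 3084 genes reduced in roots 2078 had a called difference, and of the 384 increased genes 191 did. These genes were chosen for their change in the same root libraries that enter the difference, so its sign was nearly fixed by the choice. The reduced genes had median log2 fold changes of -2.19 in roots and 0.23 in cotyledons in this fit, and 28 of them were called lower in cotyledons and 219 higher. The increased genes had medians of 1.34 in roots and 0.11 in cotyledons, and 38 of them were higher and 3 lower in cotyledons. In whole seedlings, where roots and shoots are pooled, 0 of 20911 genes were called in either direction by edgeR's test, and 690 had an unadjusted p under 0.05.

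**Figure D5:**
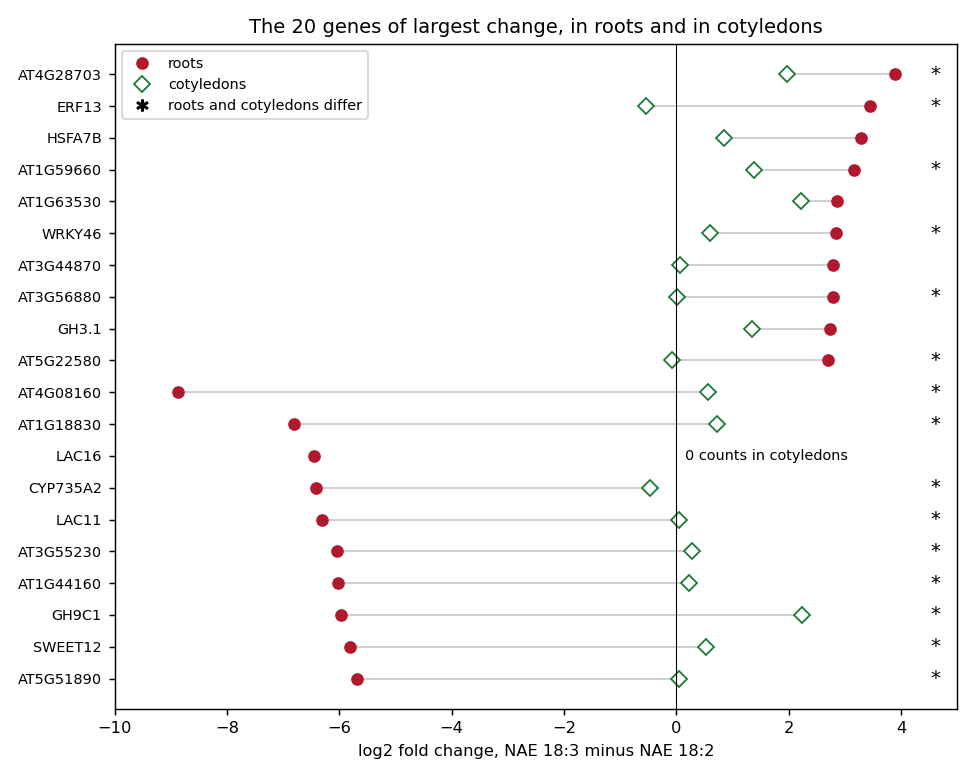
The 20 genes with the largest changes in roots are set one under the other, each with its log2 fold change (NAE 18:3 over NAE 18:2) in roots as a filled point and in cotyledons as an open diamond, joined by a line, and a star marks genes called for the difference. The 10 reduced genes lie at -5.68 or lower in roots and between -0.48 and 2.23 in cotyledons, except LAC16, which had 0 counts in cotyledons. Several others were near the floor in cotyledons, such as GH9C1 at 0 to 0.201 CPM.

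The contrast of several leading genes differed between the organs. ERF13 had log2 fold changes of 3.44 in roots and -0.54 in cotyledons (difference 3.97 ± 0.50 SE, adjusted p = 3e-05). WRKY46 had 2.83 in roots and 0.60 in cotyledons (difference 2.23 ± 0.32 SE, adjusted p = 8e-05). SWEET12 had -5.81 in roots and 0.53 in cotyledons (difference -6.34 ± 0.75 SE, adjusted p = 2e-05), and GSTU19 had -1.83 in roots and 0.80 in cotyledons (difference -2.63 ± 0.31 SE, adjusted p = 2e-05). None of these 4 genes was called in cotyledons, where the adjusted p was 0.30 for ERF13, 0.075 for WRKY46, 0.41 for SWEET12 and 0.021 for GSTU19. Of the 30 genes chosen for the size of their change or their level, 21 were called for the difference, beside 20.6% of all genes. They were called in the same root libraries, so the sign of their difference was nearly fixed by the choice too. In cotyledons 5 of the 30 were called, 2 of them (DJ1A and ABCB4) with the sign opposite to roots. Several of the 30 were near the floor in cotyledons, such as GH9C1 at 0 to 0.201 CPM. Among the ribosomal protein genes 70 of 118 were called for a positive difference (6.7% of all genes). Among suberin genes 7 of 23 were called for a negative one (13.9% of all genes).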

How the data were processed

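RNA was sequenced from dissected roots, cotyledons and whole seedlings, 3 libraries for each of 3 treatments, 27 in all. The authors trimmed reads, aligned them with STAR to TAIR10 and deposited raw counts per gene, which were used here; a second table of counts divided by size factors was not used. Whether counting used the strand is not given in the sources used here.

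The contrast was fitted with edgeR 4.0.16 in R 4.3.3 (TMM factors, filterByExpr, robust quasi-likelihood fit) on the 9 root libraries, so that DMSO roots share the estimate of spread. Genes past a Benjamini-Hochberg adjusted p of 0.01 and a fold change of 2 were called, over all 20138 tested genes. Roots and cotyledons were compared by an interaction contrast in 18 libraries. DESeq2 1.42.0, other scalings, filters and samples, a replicate block and each library left out in turn were alternatives. P-values weigh the difference between groups against the spread estimated from these libraries, and counting intervals (95%) cover counting error only. No pair of replicates differed by as little as sampling noise.

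The members and lists were chosen with earlier results of these data known. Genes named were the 10 largest and 10 smallest fold changes among called genes averaging at least 5 CPM without overlap, up to 3 called members per list by fold change (or, where none was called, the most abundant member), the 30 genes the study discusses, and the 5 most abundant called genes in each direction. Some members of lists, such as MYB41, PAL1, RHD6, CPC, WRKY40, MKK9, SCR and FAAH, and AT5G07165, were chosen after their values were seen. Some genes that the rule names are not reported here. Names, positions and promoters came from RefSeq TAIR10.1, in which 32548 of 32833 identifiers matched. Overlapping genes were read from the same annotation, and near copies from BLAST+ 2.17.0.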

Additional observations from a re-analysis of the deposited data

Results flagged for a closer look

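The root contrast was set against the same contrast in cotyledons by a test of the difference itself, and 1435 genes had a positive and 2985 a negative difference. The genes named in this section were called in the same root libraries, so the sign of their difference was nearly fixed by the choice. Among the 20 genes of largest change in roots, the difference (roots minus cotyledons, log2) was 1.92 for AT4G28703, 3.97 for ERF13, 1.79 for AT1G59660, 2.23 for WRKY46, 2.77 for AT3G56880 and 2.77 for AT5G22580. HSFA7B, AT1G63530, AT3G44870 and GH3.1 were not called for it. Of these, AT1G63530 was itself called higher in cotyledons (2.21, adjusted p = 0.00027). The others were near the floor in cotyledons, so that a missing call does not show a shared change. HSFA7B lay there at 0.0386 to 0.272 CPM, GH3.1 at 0.0468 to 0.262 and AT3G44870 at 0 to 0.0468. On the reduced side the difference was -9.44 for AT4G08160, -7.52 for AT1G18830, -5.94 for CYP735A2, -6.36 for LAC11, -6.31 for AT3G55230, -6.25 for AT1G44160, -8.19 for GH9C1, -6.34 for SWEET12 and -5.72 for AT5G51890. LAC16 had 0 counts in cotyledons and no difference could be estimated.

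Of the 10 most abundant called genes, 6 differed between the organs, with values of 1.51 for EMB1080, -2.63 for GSTU19, -1.51 for PYK10, -2.7 for DJ1A, -3.03 for EXT3 and -3.64 for ABCB4. ABCB4 and DJ1A were called higher in cotyledons: ABCB4 had -1.96 in roots and 1.68 in cotyledons (difference -3.64 ± 0.54 SE, adjusted p = 0.00011), with an adjusted p of 0.0079 in cotyledons, and DJ1A had -0.997 in roots and 1.70 in cotyledons, with an adjusted p of 0.0006 in cotyledons. EXT3 (0.26, adjusted p = 0.70) and GSTU19 (0.80, adjusted p = 0.021) were not called in cotyledons.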

How the results depend on the processing

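The count of genes higher in NAE 18:3 than in NAE 18:2 roots (384) moved by over 1.5 times under 5 of 20 alternatives: it was 654 with upper-quartile scaling, which moved the median of all genes to 0.08, 842 with all 27 libraries, 231 among the 14985 genes averaging at least 5 CPM, where fewer genes were tested, and 179 without NAE 18:3 replicate 3 and NAE 18:2 replicate 3, a choice made after seeing the data. Leaving out 1 library in turn gave 288 to 595, the 595 without NAE 18:3 replicate 2. The count of lower genes (3084) was 1967 at 5 CPM, 1431 without both replicates 3, and 2256 to 3240 with 1 library left out. DESeq2 called 492 higher and 3467 lower, and RLE factors gave 424 and 3010. The difference between organs stayed within 1.5 times in all 16 alternatives, at 1088 to 1821 higher and 2558 to 3224 lower with 1 library left out. No named gene reversed its direction where it was called in the main fit or in the alternative. Some that were not called changed sign with 1 library left out, such as LOX4 (-0.23 to 0.26) and ERD6 (-0.18 to 0.11). Of 146 named called genes, 84 were called in every alternative that tested them. With both replicates 3 left out, 57 of 108 list counts stayed within 1.5 times. The cause of these moves was not tested. Under 1 or more settings the median changed sign in the lists of MAP kinases, lipoxygenases, salicylic acid genes, auxin transporters, alternative respiration, flavonoid synthesis, heat shock factors, primary wall cellulose, photosynthesis and plastid-encoded genes.

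Same-numbered NAE 18:3 and NAE 18:2 libraries deviated together with correlations of -0.08, -0.03 and 0.05, so the numbers do not pair them. With the replicate block 313 genes were higher and 2567 lower, and 1378 and 2866 for the difference between organs, blocked within organ.

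Depth limits low genes: 134 of the reduced genes had 3 or fewer counts over the NAE 18:3 libraries, and their folds are uncertain. The effects of acyl chain and dose cannot be told apart.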

Other observations

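Genes of tryptophan-derived defense compounds were mostly on the reduced side. Of 20 tested members 8 were lower and 1 higher (median -0.69), and the lower count was 5 without NAE 18:3 replicate 1, NAE 18:3 replicate 3, NAE 18:2 replicate 1 or NAE 18:2 replicate 2. PAD3 (AT3G26830), the last enzyme of camalexin synthesis, had 32.1, 45.6 and 22.8 CPM in NAE 18:3 roots, against 150.4, 117 and 114 CPM in NAE 18:2 roots (log2 fold change -1.92 ± 0.24 (SE), adjusted p = 0.00045), and 36.9, 29.7 and 39.6 CPM in DMSO roots. MYB34 (AT5G60890), a regulator of indole glucosinolates, had 4.79, 4.39 and 3.48 CPM in NAE 18:3 roots, against 21.7, 35.4 and 25.4 CPM in NAE 18:2 roots (log2 fold change -2.69 ± 0.22 (SE), adjusted p = 8.7e-05), and 99.8, 127 and 92.97 CPM in DMSO roots. In both genes the NAE 18:3 and NAE 18:2 libraries did not overlap. Of 12 tested genes of root beta-glucosidases and ER bodies 4 were lower, but only 1 or 2 were in 7 of the 9 fits that each left out 1 library (1 without NAE 18:3 replicate 3, NAE 18:2 replicate 1 or NAE 18:2 replicate 3), 1 with the replicate block and 0 without both replicates 3. MEB2 (AT5G24290), a membrane protein of ER bodies, changed by -1.75 ± 0.34 (adjusted p = 0.0032).

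Of 6 tested genes of flavonoid synthesis 1 was higher and 2 were lower. MYB12 (AT2G47460), which switches on early enzymes of the path, was higher, with 137, 106 and 135 CPM in NAE 18:3 roots, against 43.04, 41.1 and 42.2 CPM in NAE 18:2 roots (log2 fold change 1.58 ± 0.22 (SE), adjusted p = 0.00064), and 24.9, 21.1 and 40.1 CPM in DMSO roots. Chalcone synthase (AT5G13930, TT4) was lower, with 106, 125 and 102 CPM in NAE 18:3 roots, against 215, 429 and 284 CPM in NAE 18:2 roots (log2 fold change -1.48 ± 0.28 (SE), adjusted p = 0.0026), and 274, 425 and 479.8 CPM in DMSO roots, and chalcone isomerase (AT3G55120, TT5) changed by -2.48 ± 0.33 (adjusted p = 0.00057). The calls of CHS and MEB2 were lost without 1 library, here with the adjusted p-value that remained: NAE 18:3 replicate 1 (CHS 0.012), NAE 18:3 replicate 3 (CHS 0.012, MEB2 0.012), NAE 18:2 replicate 1 (MEB2 0.012) and NAE 18:2 replicate 3 (MEB2 0.0103). The brassinosteroid receptors of vascular tissue BRL1 (AT1G55610) and BRL3 (AT3G13380) changed by -2.25 ± 0.27 (adjusted p = 0.00034) and -2.05 ± 0.19 (adjusted p = 0.00013).

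The alternative oxidase gene AOX1A (AT3G22370), which responds to mitochondrial stress, had 268, 526 and 349 CPM in NAE 18:3 roots, against 745, 713 and 759.6 CPM in NAE 18:2 roots and 32.8, 23.7 and 43.3 CPM in DMSO roots. Both NAEs stood far above DMSO, and the difference between them was not called (log2 fold change -0.96 ± 0.27, adjusted p = 0.016) except without NAE 18:3 replicate 2 (-1.24, adjusted p = 0.0028). Of 11 tested genes of alternative respiration 0 were called between the NAEs by edgeR or DESeq2 (5 had an unadjusted p under 0.05, and 3 were called lower without NAE 18:3 replicate 2), while their median log2 fold changes against DMSO were 1.23 with NAE 18:3 and 2.08 with NAE 18:2. JAZ1 (AT1G19180), a jasmonate repressor, and ZAT12 (AT5G59820, annotated as RHL41), a zinc finger factor of oxidative stress, were also not called, with log2 fold changes of 0.19 ± 0.17 for JAZ1 and 0.05 ± 0.30 for ZAT12.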
